A study of Mus musculus with 10 samples.

Results

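The 36 genes described here are the enzymes, regulators and marker genes of the sebaceous gland and of fatty acid synthesis, chosen by symbol from a list of names. They were chosen with earlier results of these data known. All 36 were among the 17016 gene symbols of the authors' table, and 35 passed the filter for testing. They were measured by RNA sequencing of whole skin from BALB/c females, 10 to 11 weeks old. Imiquimod, which activates the receptor TLR7 and induces inflammation that resembles psoriasis, was spread on the shaved backs of all animals as a 5% cream, daily over 5 days. One group of 5 samples also received quinpirole, which activates the dopamine receptor DRD2, by 5 injections into the peritoneum over the same days, and the other group of 5 is labelled vehicle. Every animal had imiquimod, so the comparison is between inflamed skin with and without quinpirole, and skin without imiquimod was not analysed here. Samples are numbered within a group, and no label ties a number to an animal of its own. The p-values below therefore stand for the spread among samples, which may be technical.

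Sebaceous glands are lobes of the hair follicle whose cells, the sebocytes, fill with lipid and burst to release sebum onto the hair and skin surface. Sebocytes make fatty acids from cytosolic acetyl-CoA, elongate and desaturate them, reduce some of them to fatty alcohols, and join the products into wax esters, sterol esters and triglycerides stored in lipid droplets. Many of the same enzymes work in the adipocytes of the dermis and in the epidermis, so a member's RNA in whole skin has several possible sources. In whole tissue, more cells of a type and more RNA per cell cannot be told apart.

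Library sizes ran from 6763367 to 8361877 reads assigned to genes, and values are given as CPM, read counts scaled to a common library size, in which 1 read was worth 0.119 to 0.146. The 8 genes taken as sebocyte markers (Scd1, Mc5r, Krt79, Awat1, Awat2, Elovl3, Fasn and Pparg) had reads in all 10 libraries, the lowest value being 2.80 CPM for Mc5r in vehicle replicate 5. The list of 29 hair genes, called hair shaft genes here, also holds inner root sheath keratins such as Krt71, Krt73 and Krt25. It separated libraries of both groups, with a mean log2 level from 0.491 to 6.52 for vehicle and from 0.555 to 6.57 for quinpirole. The list of 20 skeletal muscle genes ran from 4.67 to 6.36 and from 5.66 to 7.71, highest in quinpirole replicate 4. Over all 14548 genes tested, limma called 3 at an adjusted p under 0.05, which is 0.0206%: Igfbp5 and Dbp higher and Pck1 lower with quinpirole.

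No member passed this threshold, but most had higher values in the quinpirole libraries. The members were chosen with earlier results of these data known, and many varied together across libraries. The shares below therefore describe the list and do not test it. Of 35 members tested with limma, 29 had a log2 fold change above 0, where 49.6% of all genes did, and the median was 0.45 against -0.0021 for all genes. At an unadjusted p under 0.05 stood 18 members on the higher side, where the background was 6.92%, and 1 on the lower side, Scd2, where it was 4.47%. The groups did not overlap for Krt79, Pparg, Thrsp and Fa2h, all higher with quinpirole, which is 4 of 35 members against 1.34% of all genes in that direction. edgeR's quasi-likelihood test on the recovered reads likewise called 0 members, and 0.0344% of all genes, and 15 members stood on the higher side at its unadjusted p under 0.05, with a background of 6.79%. DESeq2 called 5 members, Krt79, Pparg, Thrsp, Elovl6 and Fa2h, all higher, and 1.03% of all genes on the higher side. Its adjusted p was 2.21e-04 for Thrsp, 0.00332 for Fa2h, 0.00336 for both Krt79 and Elovl6, and 0.0182 for Pparg. Leaving out vehicle replicate 5, limma called 1 member, Thrsp, with an adjusted p of 0.0336, where over all 25 alternatives it ran from 2.21e-04 to 0.360. Fold changes are differences of log2 of CPM plus 1, which understates those of genes at a few CPM.

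**Figure D1:**
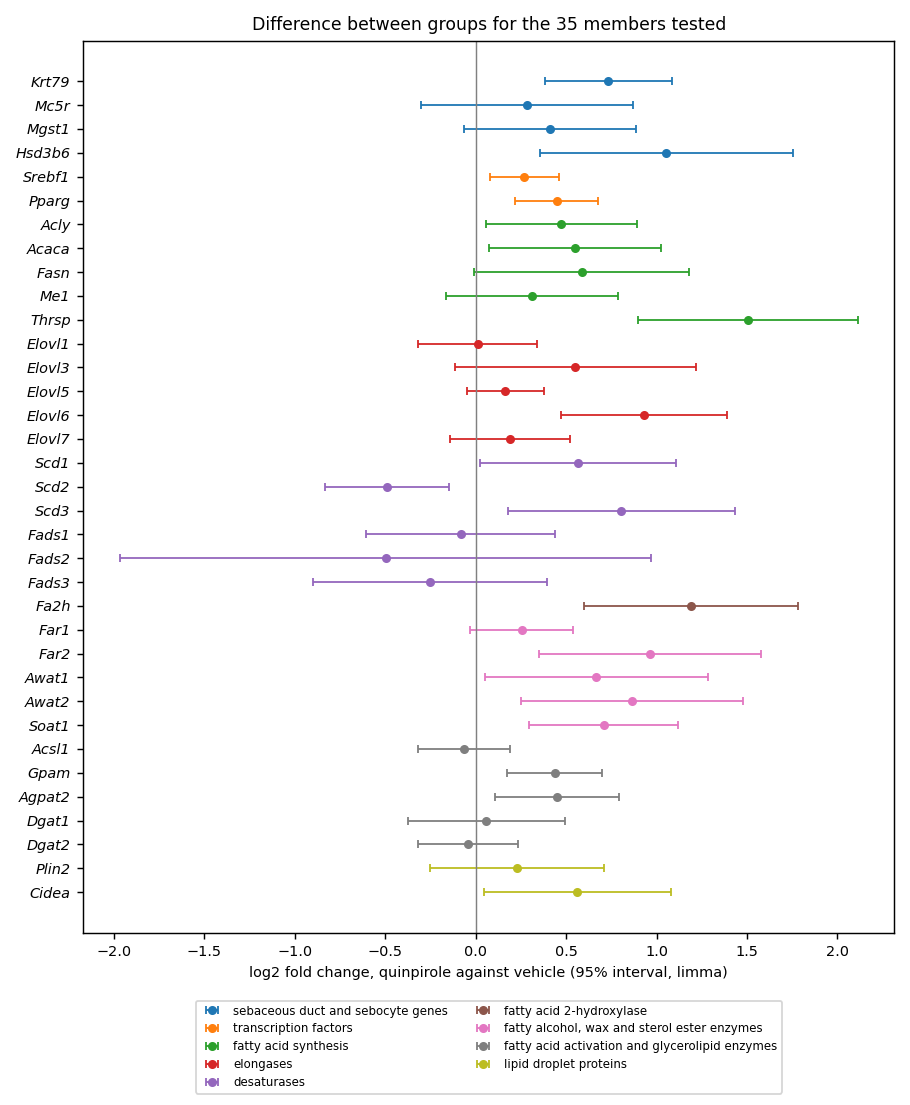
Log2 fold change of quinpirole against vehicle for the 35 members tested, with its 95% interval from limma on the x axis and members ordered and coloured by role on the y axis. Thrsp has the highest value, at 1.51, the 4 members below 0 among the desaturases are Scd2 and Fads1, Fads2 and Fads3, and no member passed the adjusted threshold.

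Krt79, a keratin of the sebaceous duct and of the follicle canal above it, was the third most abundant member per kilobase of annotated exon. Its gene lies at chr15:101929332-101940324 on the minus strand (mm10, GENCODE M21, as all gene positions here). It measured 727, 449, 495, 537 and 573 CPM in vehicle replicates 1 to 5 and 915, 1277, 784, 835 and 829.8 CPM in quinpirole replicates 1 to 5. The highest vehicle library lay below the lowest quinpirole library, and quinpirole replicate 2 stood above the rest. The means were 556 ± 106 with vehicle and 928 ± 201 CPM with quinpirole (SD, n = 5 in each group; log2 fold change 0.73, SE 0.16, limma adjusted p = 0.169). Hsd3b6, a hydroxysteroid dehydrogenase isoform of steroid synthesis, measured 13.3, 4.56, 4.85, 9.11 and 11.6 CPM with vehicle and 18.1, 25.1, 11.6, 11.8 and 27.5 CPM with quinpirole. Vehicle replicates 2 and 3 were lowest and quinpirole replicates 2 and 5 highest, and the groups overlapped (log2 fold change 1.05, SE 0.32, limma adjusted p = 0.248). Of the 50-base stretches of Hsd3b6 transcripts, 15.6% also occur in transcripts of other genes, mostly of the same family, so its level is uncertain where reads were divided.

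The microsomal glutathione transferase Mgst1, which is abundant in sebocytes, had 197 ± 56.7 with vehicle and 259 ± 63.1 CPM with quinpirole (log2 fold change 0.41, SE 0.22, limma adjusted p = 0.503). Mc5r, the melanocortin receptor through which mouse sebaceous secretion is stimulated, was among the least abundant members, with 193 reads in the vehicle group and 258 in the quinpirole group. It ran from 2.80 to 6.42 CPM with vehicle and from 3.31 to 10.3 CPM with quinpirole, with 3 of the quinpirole libraries inside the vehicle range (log2 fold change 0.28, SE 0.27, limma adjusted p = 0.737).

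**Figure D2:**
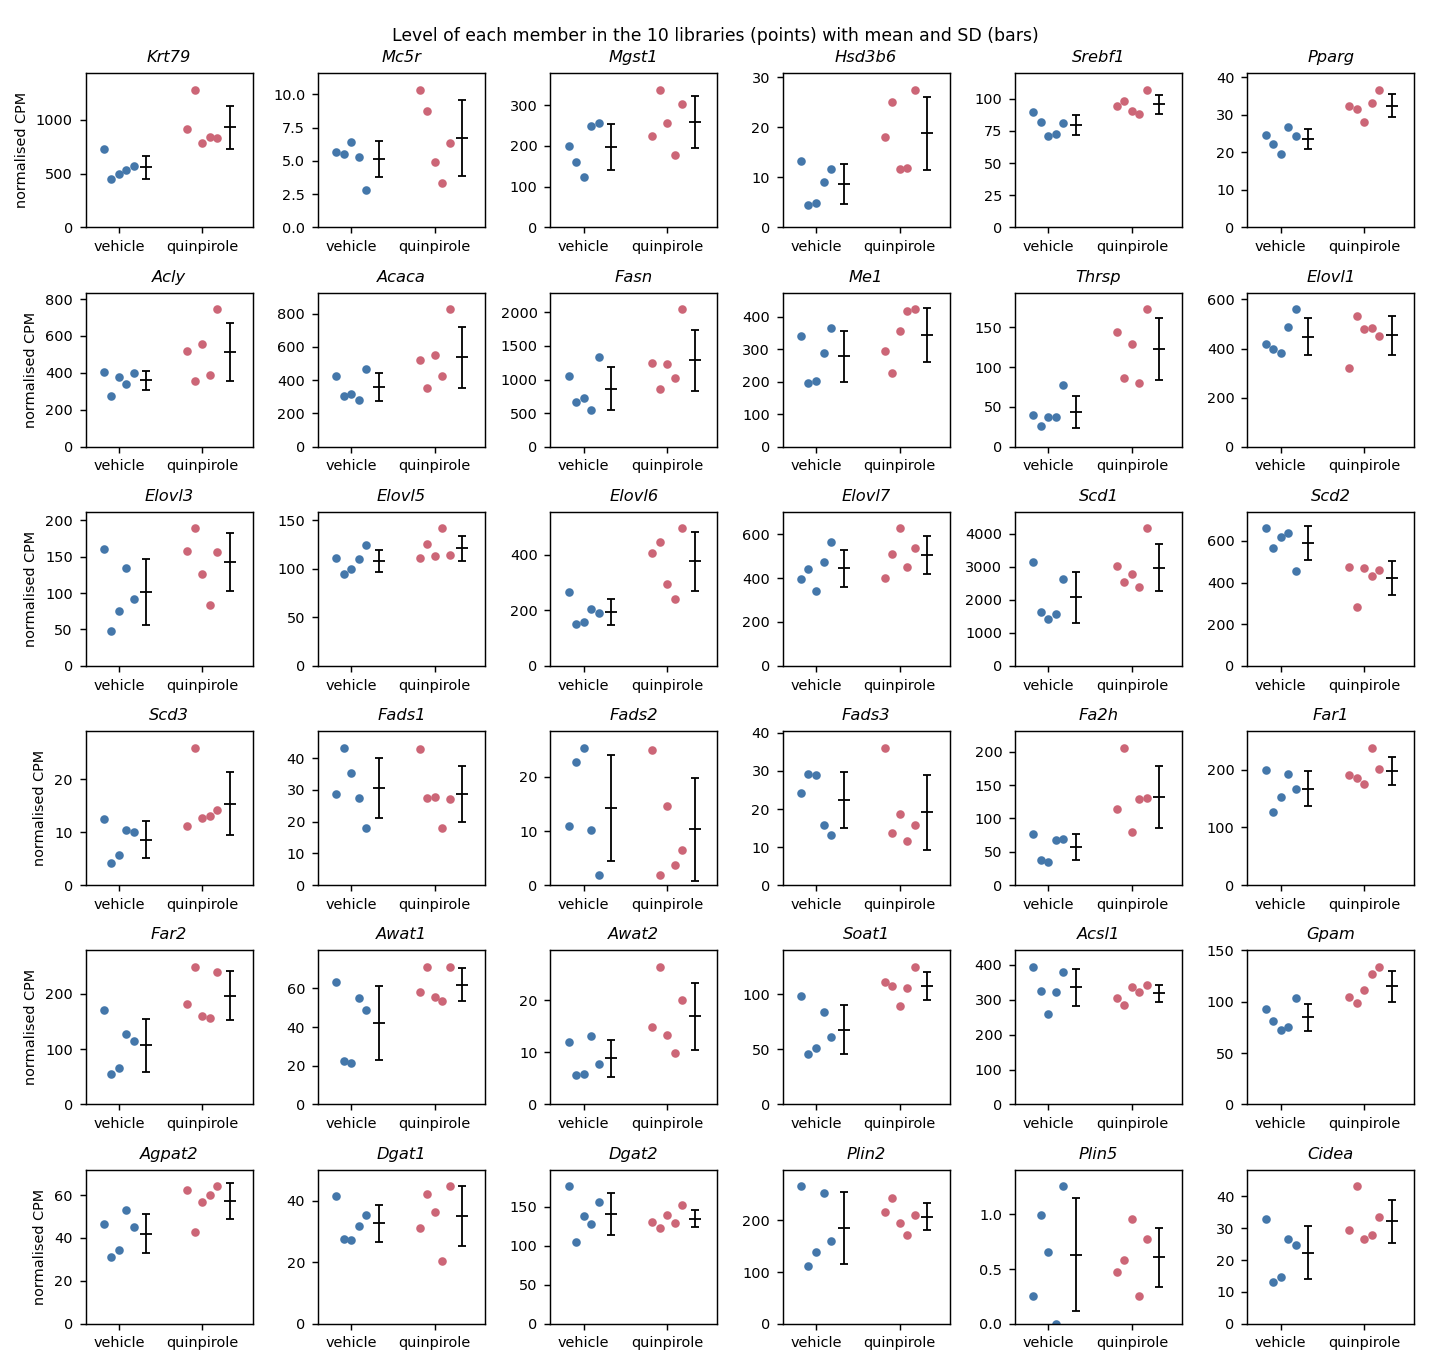
Normalised CPM of each of the 36 members in the 5 vehicle and 5 quinpirole libraries (points, replicates 1 to 5 from left to right), with the mean and SD of each group as black bars, on linear axes that start at 0. The groups do not overlap for Krt79, Pparg, Thrsp and Fa2h, and Scd2 is lower in every quinpirole library than in vehicle replicates 1 to 4.

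Both transcription factors of lipid synthesis had small positive log2 fold changes and little spread within groups. Pparg encodes the nuclear receptor that drives differentiation of sebocytes and of adipocytes, and lies at chr6:115360951-115490399 on the plus strand. It measured 24.5, 22.2, 19.7, 26.8 and 24.3 CPM in vehicle replicates 1 to 5 and 32.4, 31.5, 28.2, 33.2 and 36.7 CPM in the quinpirole replicates, without overlap (log2 fold change 0.45, SE 0.105, limma adjusted p = 0.182). Srebf1, which encodes the sterol regulatory element binding protein that activates genes of fatty acid synthesis, measured 90.02, 81.7, 71.02, 72.8 and 81.4 CPM and 94.7, 98.3, 90.2, 88.3 and 107 CPM in the same order. Vehicle replicate 1 lay just above quinpirole replicate 4, and the other vehicle libraries lay below every quinpirole library (log2 fold change 0.27, SE 0.088, limma adjusted p = 0.278).

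All 5 members of the synthesis step had positive log2 fold changes, and Thrsp, a lipogenic nuclear protein also known as Spot14, had the largest of the 35 tested. Its gene lies at chr7:97412938-97417730 on the minus strand. Thrsp measured 40.2, 25.6, 36.8, 37.8 and 77.6 CPM in vehicle replicates 1 to 5 and 144, 86.7, 129, 80.5 and 173 CPM in quinpirole replicates 1 to 5. Vehicle replicate 5 stood far above the other vehicle libraries and still just below the lowest quinpirole library, which was replicate 4. The group means were 43.6 ± 19.8 with vehicle and 123 ± 39.04 CPM with quinpirole (SD, n = 5 in each group; log2 fold change 1.51, SE 0.28, 95% interval 0.899 to 2.11, limma adjusted p = 0.113). Thrsp ranked 21 by p among the 14548 genes tested.

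The enzymes of the step itself had smaller log2 fold changes than Thrsp. Acly, the ATP citrate lyase that makes cytosolic acetyl-CoA, measured 404, 275, 376, 341 and 399 CPM with vehicle and 519, 354, 556, 386 and 746 CPM with quinpirole. Acaca, the acetyl-CoA carboxylase that commits it to synthesis, measured 423, 304, 317, 278 and 468 CPM and 521, 353, 553, 426 and 827 CPM. Fasn, the fatty acid synthase that builds palmitate, measured 1050.3, 661, 725, 546 and 1336 CPM and 1251, 863, 1237, 1021 and 2049 CPM. For each of these 3 enzymes quinpirole replicate 5 was the highest of all libraries, and quinpirole replicate 2 was the lowest of its group and inside the vehicle range. The log2 fold changes were 0.47 for Acly, 0.55 for Acaca and 0.58 for Fasn, with limma adjusted p of 0.377, 0.366 and 0.449. Fitted beside the muscle list mean they were lower, at 0.33, 0.29 and 0.21. Me1, the malic enzyme that supplies NADPH, had 278 ± 77.95 with vehicle and 343 ± 83.4 CPM with quinpirole (log2 fold change 0.31, SE 0.22, limma adjusted p = 0.625), and its log2 fold change turned to -0.058 with the muscle covariate. Transcripts of pseudogenes and other genes share 30.4% of the 50-base stretches of Acaca and 22.9% of those of Me1.

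Promoter sequence was taken from RefSeq (GRCm38.p6) for the 3 members called by DESeq2 that have a single start there. The 200 bases before that start are given 5′ to 3′ on the gene's strand, so that these promoters can be read beside the differences above. Capitals mark the letters CCAAT, the binding motif of the factor NF-Y, or AGGTCA, the half-site of nuclear receptors such as PPARG, on either strand. The window of Thrsp is chr7:97417551-97417750 on the minus strand, and that of Elovl6, like that of Thrsp, holds the gene's start as GENCODE M21 annotates it. The window of Elovl6 is chr3:129532186-129532385 on the plus strand, and that of Krt79 is chr15:101940325-101940524 on the minus strand.
Thrsp: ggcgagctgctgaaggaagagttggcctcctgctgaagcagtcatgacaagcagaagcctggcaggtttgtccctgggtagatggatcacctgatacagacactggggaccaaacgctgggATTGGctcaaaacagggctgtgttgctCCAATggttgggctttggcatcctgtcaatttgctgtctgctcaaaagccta
Krt79: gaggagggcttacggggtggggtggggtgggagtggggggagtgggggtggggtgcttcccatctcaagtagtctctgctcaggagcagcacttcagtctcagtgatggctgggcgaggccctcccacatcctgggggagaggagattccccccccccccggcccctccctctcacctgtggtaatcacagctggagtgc
Elovl6: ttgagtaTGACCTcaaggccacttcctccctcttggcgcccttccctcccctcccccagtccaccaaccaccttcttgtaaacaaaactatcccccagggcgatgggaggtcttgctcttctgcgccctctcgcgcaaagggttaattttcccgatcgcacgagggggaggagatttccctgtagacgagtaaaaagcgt

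Thrsp holds CCAAT in reverse from 79 to 75 bases before its RefSeq start and as spelled from 52 to 48 bases before it. GENCODE M21 places its start farther upstream, at chr7:97417730, so both matches lie within the gene as annotated there. Elovl6 holds AGGTCA in reverse from 193 to 188 bases before its start, and Krt79 holds neither motif in this window. Over 32851 mouse promoters of the same length, 29.3% held CCAAT and 11.4% held AGGTCA on either strand. The table had 38 promoters for 27 of the 36 members, of which 17 (44.7%) held CCAAT and 7 (18.4%) held AGGTCA, some of them several starts of 1 gene. The E-box CACGTG was found in 1 member promoter, that of Elovl5, and in 5.26% of all promoters. TCACNCCAC, a form of the sterol regulatory element, was found in 1, of Acsl1, and in 0.858%. The full PPAR response element, a direct repeat of AGGTCA with 1 base between, was in 0 of the 38 and in 0.0335% of all. These are matches of letters within 200 bases and not sites shown to be bound.

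Elongases lengthen fatty acids in the endoplasmic reticulum, and of the 5 measured Elovl6 had the largest log2 fold change. Its gene lies at chr3:129532355-129638495 on the plus strand. Elovl6, which makes stearate from palmitate, measured 266, 150.2, 157, 206 and 191 CPM in vehicle replicates 1 to 5 and 406, 445, 294, 239 and 495 CPM in quinpirole replicates 1 to 5. Its vehicle replicate 1 lay above quinpirole replicate 4, and the remaining libraries of the groups did not overlap. The means were 194 ± 46.3 with vehicle and 376 ± 106 CPM with quinpirole (SD, n = 5 in each group; log2 fold change 0.93, SE 0.21, limma adjusted p = 0.177). Elovl3, an elongase of very long chains that marks mouse sebocytes, measured 159.8, 48.1, 74.95, 134 and 92.1 CPM and 158, 189, 126, 83.7 and 156 CPM, with wide overlap (log2 fold change 0.55, SE 0.305, limma adjusted p = 0.523).

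The other elongases differed little. Elovl1, which makes the saturated very long chains of skin ceramides, had 449 ± 74.96 with vehicle and 453 ± 79.5 CPM with quinpirole and a log2 fold change of 0.0101 with a 95% interval from -0.32 to 0.34, and its sign turned in 9 of 25 alternatives. Elovl7 had a log2 fold change of 0.19 (SE 0.15), and Elovl5, the elongase of polyunsaturated fatty acids, 0.16 (SE 0.098), with limma adjusted p of 0.687 and 0.557. The test compared each member between groups and not one elongase with another.

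Desaturases lay on both sides of 0, with 2 above and 4 below and a median of -0.17. Scd1, the stearoyl-CoA desaturase of sebocytes and the most abundant member per length, measured 3142, 1633, 1407, 1562 and 2620.3 CPM in vehicle replicates 1 to 5 and 3016, 2545, 2774, 2381 and 4166 CPM in quinpirole replicates 1 to 5. Vehicle replicates 1 and 5 lay among the quinpirole libraries and the other vehicle libraries below all of them (log2 fold change 0.57, SE 0.25, limma adjusted p = 0.413). Its paralog Scd3 (log2 fold change 0.81, SE 0.29, limma adjusted p = 0.311) had quinpirole replicate 2 at 25.9 CPM against 11.2 to 14.1 CPM in the rest of its group. Scd2, the paralog expressed more widely, measured 661, 565, 621, 638 and 458 CPM and 475, 281, 468, 429 and 460.1 CPM. Its vehicle replicate 5 was below 3 of the quinpirole libraries, and the other vehicle libraries were above all of them. The mean of Scd2 was 589 ± 81.4 with vehicle and 423 ± 81.02 CPM with quinpirole (log2 fold change -0.49, SE 0.16, limma adjusted p = 0.269).

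Within each library, Scd1 thus outnumbered Scd2 by different amounts. The ratio of Scd1 to Scd2 over vehicle replicates 1 to 5 was 4.75, 2.89, 2.26, 2.45 and 5.73, and over quinpirole replicates 1 to 5 it was 6.35, 9.04, 5.92, 5.54 and 9.05. Vehicle replicate 5 lay just above quinpirole replicate 4, and the other vehicle libraries were below all quinpirole libraries. This ratio was formed after its values were seen and was not tested. The summed level of Scd1, Scd2, Scd3 and Scd4 ran from 2034 to 3816 CPM with vehicle and from 2824 to 4642 CPM with quinpirole. These genes lie near each other on chromosome 19, Scd1 at chr19:44394455-44407879 on the minus strand, and other transcripts, mostly of the family, share 4.56% of the 50-base stretches of Scd1, 3.97% of Scd2 and 6.54% of Scd3, so a part of their reads could have been divided between them.

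The Fads genes, of which Fads1 and Fads2 encode front-end desaturases of polyunsaturated fatty acids, varied across libraries with the hair shaft genes. Fads2, which takes the first step on linoleic acid and in humans makes the sebum fatty acid sapienate, measured 10.9, 22.8, 25.4, 10.2 and 1.82 CPM in vehicle replicates 1 to 5 and 24.98, 1.89, 14.6, 3.82 and 6.46 CPM in quinpirole replicates 1 to 5. The groups covered nearly the same range (log2 fold change -0.498, SE 0.67, limma adjusted p = 0.824). Fads3 measured 24.1, 29.2, 28.8, 15.9 and 13.3 CPM and 36.2, 13.7, 18.7, 11.6 and 15.9 CPM, and Fads1, the next desaturase of the same pathway, 28.7, 43.3, 35.4, 27.3 and 18.04 CPM and 42.9, 27.5, 27.7, 18.1 and 27.3 CPM, each high in vehicle replicates 2 and 3 and in quinpirole replicate 1. Their log2 fold changes were -0.25 (SE 0.297) for Fads3 and -0.083 (SE 0.24) for Fads1, with limma adjusted p of 0.798 and 0.931. Fitted beside the hair list mean, the signs turned, to 0.24 for Fads2, 0.059 for Fads3 and 0.15 for Fads1.

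Over the 10 libraries, the log2 level of Fads2 followed the hair list mean with Pearson's r = 0.97 (permutation p = 5e-05, adjusted 0.00525) and Spearman's rho = 0.96 (permutation p = 8e-05, adjusted 0.0042). For Fads3 these were r = 0.95 (permutation p = 1e-04, adjusted 0.00525) and rho = 0.96 (permutation p = 5e-05, adjusted 0.0042), and for Fads1 r = 0.87 (permutation p = 0.00066, adjusted 0.0145) and rho = 0.93 (permutation p = 0.00034, adjusted 0.0119). Elovl1 ran the other way, with r = -0.87 (permutation p = 0.00069, adjusted 0.0145) and rho = -0.92 (permutation p = 0.00053, adjusted 0.0139). Elovl5 did so with r = -0.87 (permutation p = 0.00034, adjusted 0.0119), while its rho of -0.78 (permutation p = 0.0103) had an adjusted p of 0.154. In all, 105 relations were computed, of 35 members with the hair, adipocyte and muscle lists, with Benjamini-Hochberg adjustment over them. Without the 2 libraries farthest from the median of the hair list, r was 0.965 for Fads2, 0.933 for Fads3, 0.753 for Fads1, -0.865 for Elovl1 and -0.817 for Elovl5. In vehicle replicate 5 and quinpirole replicates 2 and 4 the hair list mean was under 1, and over the 7 libraries above 1 r was 0.918 for Fads2, 0.966 for Fads3, 0.850 for Fads1, -0.821 for Elovl1 and -0.661 for Elovl5. The labels name no batch, and no correlation was taken within a single group of 5 libraries. The deviations from the group means gave r = 0.971, 0.950, 0.890, -0.913 and -0.874 in the same order of genes. Scd2, which did not pass adjustment, had r = 0.67 to the hair list (permutation p = 0.0263, adjusted 0.2865). Its r was 0.669 on the deviations and 0.247 over the 7 libraries above 1.

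**Figure D3:**
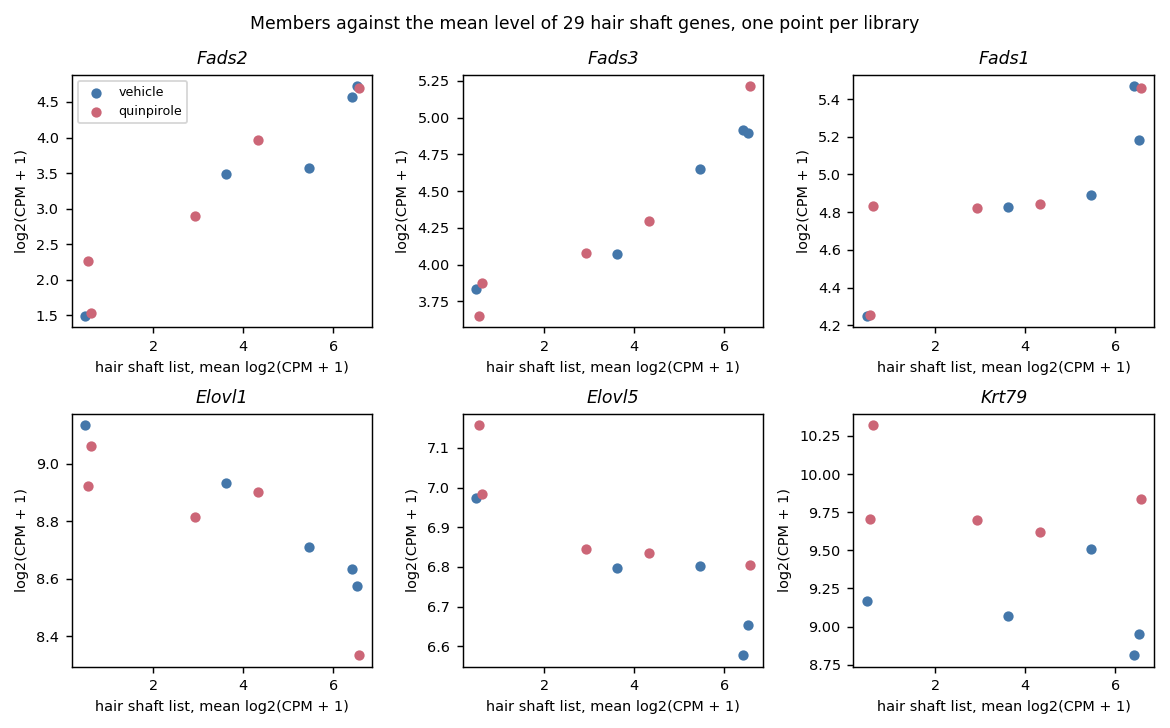
Log2 level of 6 members (y axes, log2 of CPM plus 1) against the mean log2 level of 29 hair shaft genes (x axes), 1 point per library, vehicle in blue and quinpirole in red. Fads2, Fads3 and Fads1 are higher and Elovl1 and Elovl5 lower in libraries with a higher mean of this list. Krt79, with r = -0.43 to the hair list (permutation p = 0.209, adjusted 0.510), separates by group.

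Fa2h, the hydroxylase that adds a hydroxyl group to fatty acids of sphingolipids and of sebum lipids, had the second largest log2 fold change of the members and lies at chr8:111345135-111393824 on the minus strand. It measured 76.4, 38.02, 34.9, 68.3 and 69.9 CPM in vehicle replicates 1 to 5 and 114, 206, 79.5, 129 and 130.5 CPM in quinpirole replicates 1 to 5. Quinpirole replicate 3, the lowest of its group, lay just above vehicle replicate 1, the highest vehicle library, and quinpirole replicate 2 was well above all others. The means were 57.5 ± 19.5 with vehicle and 132 ± 46.4 CPM with quinpirole (SD, n = 5 in each group; log2 fold change 1.19, SE 0.27, limma adjusted p = 0.178).

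The genes of wax and sterol ester synthesis had positive log2 fold changes throughout, and vehicle replicates 2 and 3 were the low libraries for each of the 5. Far2, a reductase that turns fatty acyl-CoA into fatty alcohol, measured 171, 54.97, 65.9, 128 and 115 CPM with vehicle and 181, 248, 159, 156 and 238 CPM with quinpirole (log2 fold change 0.96, SE 0.28, limma adjusted p = 0.237). Exons of genes on the opposite strand cover 12.6% of its exon bases. Its relative Far1 had 167 ± 29.9 with vehicle and 199 ± 24.3 CPM with quinpirole (log2 fold change 0.25, SE 0.13, limma adjusted p = 0.489). In both genes at least 1 vehicle library lay within the quinpirole range.

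Awat1 and Awat2 encode the acyltransferases that join a fatty alcohol and a fatty acid into a wax ester. Awat1 measured 63.4, 22.5, 21.2, 54.8 and 48.7 CPM and 57.9, 71.1, 55.7, 53.3 and 71.04 CPM, where vehicle replicates 2 and 3 lay far below all other libraries of both groups. Awat2 measured 11.9, 5.55, 5.77, 13.1 and 7.83 CPM and 14.9, 26.4, 13.4, 9.92 and 20.02 CPM, highest in quinpirole replicates 2 and 5. The log2 fold changes were 0.67 (SE 0.28) for Awat1 and 0.87 (SE 0.28) for Awat2, with limma adjusted p of 0.399 and 0.273. Soat1, which esterifies cholesterol, measured 98.2, 45.7, 51.6, 83.7 and 61.1 CPM and 111, 107, 89.4, 106 and 125 CPM. For Soat1 a single vehicle library, replicate 1, lay above a quinpirole library, replicate 3 (log2 fold change 0.71, SE 0.19, limma adjusted p = 0.227).

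**Figure D4:**
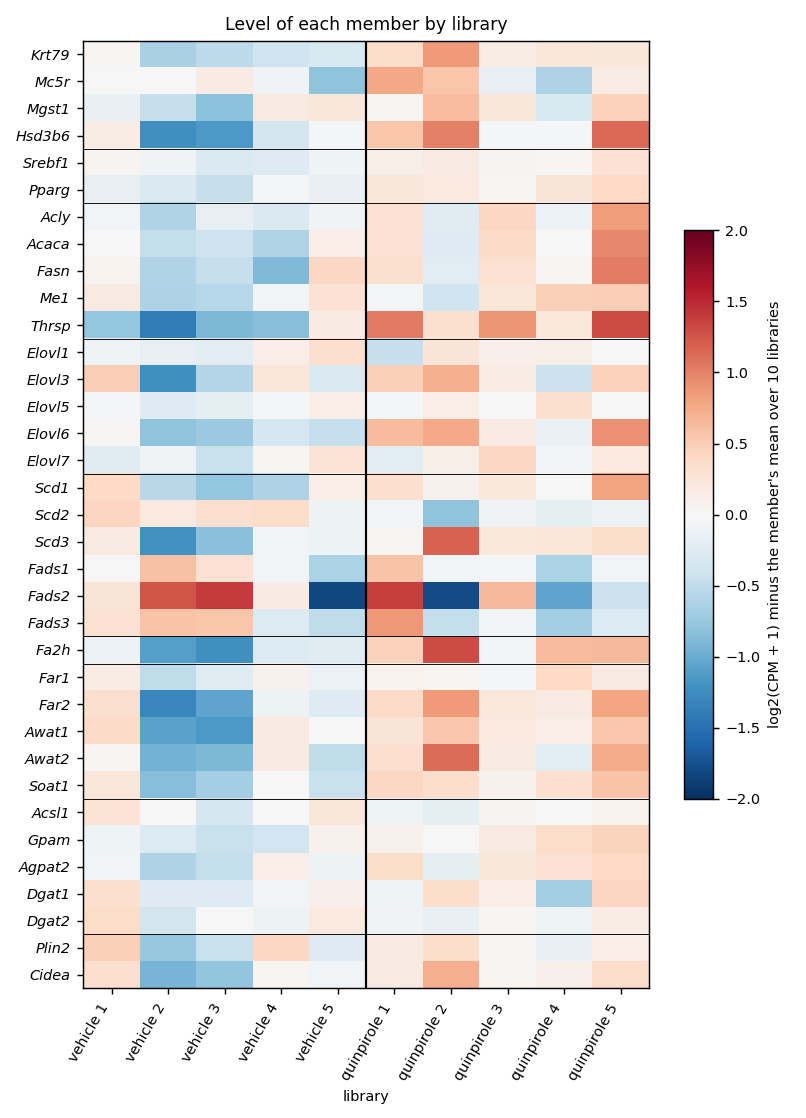
Log2 of CPM plus 1 of each tested member minus its own mean over the 10 libraries (colour), with members grouped by role in rows and libraries in columns. Vehicle replicates 2 and 3 are low for most sebocyte, wax and synthesis genes, quinpirole replicate 5 is high for most, and Fads1, Fads2 and Fads3 show another pattern.

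Of the 5 glycerolipid enzymes, 3 were above 0 and 2 below. Gpam, the mitochondrial acyltransferase that starts glycerolipid synthesis, measured 92.9, 80.9, 72.2, 75.4 and 104 CPM with vehicle and 104, 98.7, 112, 127 and 134 CPM with quinpirole (log2 fold change 0.44, SE 0.12, limma adjusted p = 0.231). Vehicle replicate 5 lay above quinpirole replicate 2, and Gpam was higher in the libraries with more muscle RNA, with r = 0.85 to the muscle list over 10 libraries (permutation p = 0.00217, adjusted 0.038). Its rho was 0.81 (permutation p = 0.00753, adjusted 0.146), and its r was 0.737 once the 2 libraries farthest from the median had been left out. With the muscle covariate its log2 fold change was 0.23. Agpat2, which adds the second acyl chain, had 42.03 ± 9.15 with vehicle and 57.2 ± 8.596 CPM with quinpirole (log2 fold change 0.45, SE 0.16, limma adjusted p = 0.301).

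The last enzymes of triglyceride synthesis, Dgat1 and Dgat2, had log2 fold changes of 0.059 with a 95% interval from -0.38 to 0.49 and -0.042 with one from -0.32 to 0.23. Acsl1, which activates fatty acids to acyl-CoA, measured 335 ± 53.9 with vehicle and 318 ± 23.7 CPM with quinpirole (log2 fold change -0.063, 95% interval -0.32 to 0.19). For these 3 genes the limma adjusted p lay between 0.877 and 0.941. The sign of Dgat1 turned in 3 of 25 alternatives and that of Dgat2 in 2.

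Among lipid droplet proteins, Cidea, a droplet fusion protein of sebocytes and brown fat, measured 32.8, 13.1, 14.5, 26.6 and 24.9 CPM in vehicle replicates 1 to 5 and 29.4, 43.3, 26.6, 27.98 and 33.6 CPM in the quinpirole replicates (log2 fold change 0.56, SE 0.24, limma adjusted p = 0.396). Vehicle replicate 1 lay among the quinpirole libraries, and the other vehicle libraries lay below all of them, replicate 4 only just. The droplet coat protein Plin2 measured 266, 112, 139, 253 and 159.5 CPM and 216, 244, 196, 172 and 209.6 CPM, with vehicle replicates 1 and 4 above every quinpirole library (log2 fold change 0.23, SE 0.22, limma adjusted p = 0.7399). Plin5, a perilipin of tissues that burn fat, did not reach the filter: it had 23 reads in the vehicle group, 23 in the quinpirole group and 0 in vehicle replicate 4.

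Levels between genes were compared per kilobase of the joined annotated exons of all transcripts of a gene. This length can exceed that of the transcript expressed, so the order depends on the annotation. Scd1 stood first with 424 ± 156 CPM per kilobase with vehicle and 608 ± 145 with quinpirole (SD, n = 5 each), followed by Elovl1 with 165 ± 27.5 and 166 ± 29.2 and Krt79 with 117 ± 22.4 and 195 ± 42.2. The neighbours Elovl1 and Krt79 did not differ beyond their spread with quinpirole. Elovl7, Mgst1, Fasn, Scd2, Acly and Me1 came next, each with a mean over all libraries from 80.7 to 118 CPM per kilobase. At the other end stood Plin5 with 0.297, Mc5r with 1.52 and Scd3 with 3.37. Awat1, at 37.4, was more abundant than Awat2, at 6.05, and Far1 and Far2 were at 22.7 and 20.7.

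The libraries differed in how they ranked over the members as well. Quinpirole replicate 5 was the highest library for 14 of the 35 members tested and quinpirole replicate 2 for 9. Vehicle replicate 2 was the lowest for 17 and vehicle replicate 3 for 9. Vehicle replicates 2 and 3 had a hair list mean of 6.42 and 6.52, and quinpirole replicate 1 one of 6.57. Quinpirole replicate 1 was among the 3 highest libraries for 19 members. Over all libraries, Pearson's r to the hair list was negative for 30 of the 35 members and positive for 5, with a median of -0.34. It passed adjustment for 5 members, Fads1, Fads2, Fads3, Elovl1 and Elovl5. The part of RNA of the hair list in these ranks was not tested. The mean log2 level over the 36 members ran from 6.06 to 6.62 with vehicle and from 6.49 to 6.94 with quinpirole, and vehicle replicate 1 lay above quinpirole replicate 4.

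Other genes of the pathway, listed by function but with earlier results of these data known, had a median closer to 0 than that of the members. Of 41 listed and 38 tested, limma called 0 and edgeR 0, 25 were above 0 and 13 below, and the median log2 fold change was 0.084. At an unadjusted p under 0.05 there were 10 above and 2 below, where 6.92% and 4.47% of all genes were. DESeq2 called 4, where of all 14548 genes it called 150 higher and 69 lower. The 4 called were those with the smallest p. The mitochondrial citrate carrier Slc25a1, which supplies Acly, had 43.5 ± 9.72 with vehicle and 74.2 ± 18.4 CPM with quinpirole (log2 fold change 0.75), the arachidonate-preferring acyl-CoA synthetase Acsl4 52.6 ± 4.47 with vehicle and 68.6 ± 5.03 CPM with quinpirole (0.38), and Cyb5r3, a reductase that feeds electrons to desaturases, 95.98 ± 8.61 with vehicle and 123 ± 7.22 CPM with quinpirole (0.36). Lpin2, a phosphatidate phosphatase, had 82.9 ± 22.2 with vehicle and 49.6 ± 4.13 CPM with quinpirole (-0.69). The groups did not overlap for any of these 4 genes, and their limma adjusted p lay between 0.177 and 0.182. Of all 14548 genes, 195 did not overlap on the higher side and 125 on the lower side.

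Sebaceous and progenitor genes outside the members also had mostly positive log2 fold changes. Of 9 tested of 10, 8 were above 0, the median was 0.37, and 4 had an unadjusted p under 0.05, where 11.4% of all genes did. Limma and edgeR called 0, and DESeq2 called Gata6, a transcription factor of the sebaceous duct and upper follicle. Gata6 had 1.76 ± 0.548 with vehicle and 4.25 ± 1.77 CPM with quinpirole (SD, n = 5 in each group; log2 fold change 0.898, limma adjusted p = 0.195). Its groups did not overlap, but it had only 66 reads with vehicle and 159 with quinpirole. The nearest libraries of the groups were vehicle replicate 1, with 20 reads, and quinpirole replicate 1, with 24. Lgr6, a receptor of stem cells of the upper follicle, had a log2 fold change of 0.54, the lipase Pnpla5 0.86 and the follicle progenitor factor Sox9 0.52, with limma adjusted p from 0.332 to 0.399.

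Adipocytes share much of this pathway, and their genes gave no common direction. Of 16 adipocyte genes, 8 were above 0 and 8 below, with a median of -0.0028, and the summed level ran from 1989 to 3526 CPM with vehicle and from 2441 to 3545 CPM with quinpirole. The 7 defining adipocyte genes were detected in all libraries. Retn had 80.4 ± 21.1 with vehicle and 118 ± 7.41 CPM with quinpirole (log2 fold change 0.58, SE 0.14, limma adjusted p = 0.187) and Adipoq 86.5 ± 23.2 with vehicle and 107 ± 10.9 CPM with quinpirole (log2 fold change 0.34, SE 0.16, limma adjusted p = 0.436). The log2 fold changes of Cfd, Cidec, Plin1, Lep and Adrb3 were 0.21, 0.14, -0.075, -0.15 and -0.52. Pck1, the gluconeogenic and glyceroneogenic carboxykinase, is on this list and fell from 30.5 ± 10.7 to 7.42 ± 2.18 CPM (log2 fold change -1.88, limma adjusted p = 0.0441). Limma and edgeR called only Pck1 of these 16 genes, and DESeq2 called Pck1 and Retn, the latter higher with an adjusted p of 0.0313. Fitted beside the adipocyte list mean, the median of the members was 0.46, and no relation of a member with this list passed adjustment over the 105 relations. Pearson's r to the adipocyte list was positive for 14 members and negative for 21, with a median of -0.13. On deviations from the group means it was highest for Gpam, at 0.794, Fasn, at 0.701, and Acaca, at 0.627, and lowest for Awat2, at -0.527. The part of adipocyte RNA in these levels was not tested.

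Of 7 listed brown fat genes, 6 were in the authors' table, and Ucp1, the defining gene of brown fat, was not among these 6. Of 6 other brown fat genes, 4 were above 0 and the median was 0.31, and Cox7a1 and Cox8b had log2 fold changes of 0.86 and 0.74, and Zic1 and Prdm16 0.35 and 0.26; the first pair is also expressed in muscle. Limma and edgeR called 0 of the 6, with 2 at an unadjusted p under 0.05, and DESeq2 called Cox7a1, with an adjusted p of 0.0425. For this and the following lists, the background was 11.4% of all genes at an unadjusted limma p under 0.05. DESeq2 called 219 of all 14548 genes. All 20 muscle genes were above 0, with a median of 1.09 and 14 at an unadjusted p under 0.05, limma and edgeR calling 0 and DESeq2 3. Among them Tcap, Myh1, Tnni2 and Tnnt3 had log2 fold changes of 1.405, 1.51, 1.19 and 1.53. All 29 hair shaft genes were below 0, with a median of -1.60, and 0 had an unadjusted p under 0.05 or were called by limma, edgeR or DESeq2. Their smallest p were those of Dsg4, Krt36, Hoxc13 and Krt73, with log2 fold changes of -1.71, -0.91, -1.04 and -2.18. Of 11 epidermal and dermal genes, 6 were above 0 and 5 below, with a median of 0.17, and limma, edgeR and DESeq2 called 0, with 2 at an unadjusted p under 0.05. The 4 with the smallest p, Krt10, Dcn, Krt1 and Lor, had log2 fold changes of 0.66, 0.65, 0.43 and 0.39. The 5 below 0, named after their values were seen, were the basal keratins Krt14 at -0.27 and Krt5 at -0.028 and the dermal collagens Col3a1 at -0.35, Col1a1 at -0.31 and Col1a2 at -0.14. The median of the members was 0.43 with the hair covariate and 0.37 with the muscle covariate, with 31 and 30 of 35 members above 0. These counts include Fads1, Fads2 and Fads3, whose signs turned in both fits. Members on the higher side at an unadjusted limma p under 0.05 numbered 18 without a covariate, 15 with hair and 12 with muscle. The muscle list mean itself averaged 5.45 with vehicle and 6.54 with quinpirole, and the hair list mean was lower with quinpirole. These fits therefore cannot separate other tissue from quinpirole, and the part of other tissue in the members' differences was not tested.

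**Figure D5:**
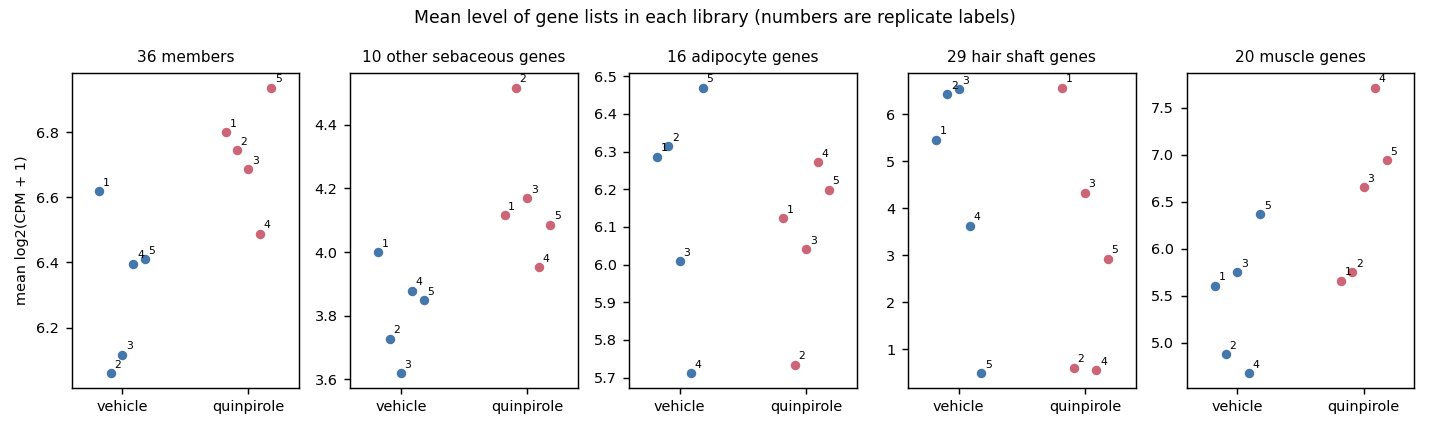
Mean log2 of CPM plus 1 in each library (points, numbered by replicate) for the members and for 4 lists of other genes, with axes that do not start at 0. The member and other sebaceous lists sit higher with quinpirole with overlap in 1 library of each group, the adipocyte list overlaps throughout, and the hair and muscle lists spread widely within groups.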

How the data were processed

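RNA was measured in 10 whole-skin libraries, 5 vehicle and 5 quinpirole. Per the labels' protocols, libraries were directional and followed ribosomal RNA depletion. The tools in the submitters' processing notes are RSEM 1.3.0, Bowtie2, Trimmomatic 0.38 and edgeR, and the genome is mm10. Which step each tool served is not given. The strand setting used in counting is not given in the sources used here.

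The authors deposited 1 table of normalised signal per gene symbol, with reads scaled per library. Each of its columns steps by the worth of 1 read, and 100% of the values of every library came out as whole reads within 1e-06 of a read. The steps equal CPM on library sizes scaled by edgeR's TMM factors. Reads per library, recovered from these steps, ran from 6763367 to 8361877. 96.0% of the symbols matched the GENCODE M21 annotation. Libraries of the same group differed beyond counting noise, and 0 columns were left unmapped.

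Groups were compared in R 4.3.3 by limma 3.58.1, with a trend of variance on mean, on log2 of CPM plus 1, fitted on all 10 libraries, for the 14548 genes with at least 1 CPM in at least 5 libraries. P-values were two-sided, with Benjamini-Hochberg adjustment over all genes tested and a threshold of 0.05. edgeR 4.0.16 (quasi-likelihood) and DESeq2 1.42.0 on the recovered reads were among 25 alternatives, with other pseudocounts, filters and scalings, list means as covariates, and single libraries left out. The fits were tested on simulated data.

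Named are all members, the 4 genes with the smallest p from each other list, the defining adipocyte and brown fat genes and the genes called overall. Members and lists were chosen with earlier results of these data known. Correlations used 100000 permutations, two-sided. Positions, exon lengths and shared 50-base stretches came from GENCODE M21, and promoters from RefSeq on GRCm38.p6.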

Additional observations from a re-analysis of the deposited data

Results flagged for a closer look

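In groups of 5 libraries, a value was looked at again where its gap to the nearest other library exceeded 0.71 of the group's whole range. This held for 5 of 72 groups of member values, and chance gives about 1 in 20 groups, so the number itself is close to that of chance. Quinpirole replicate 2 accounted for 3 of them. Its Krt79 level was 1277 CPM, against 784 to 915 CPM in the other quinpirole libraries. Its Scd3 level was 25.9 CPM, against 11.2 to 14.1 CPM, and its Scd2 level was low at 281 CPM, against 429 to 475 CPM. Vehicle replicate 5 had Thrsp at 77.6 CPM, against 25.6 to 40.2 CPM in the other vehicle libraries. Quinpirole replicate 1 had Fads3 at 36.2 CPM, against 11.6 to 18.7 CPM in the rest of its group.

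Without vehicle replicate 5 the log2 fold change of Thrsp was 1.73, and without quinpirole replicate 2 that of Krt79 was 0.61, that of Scd2 -0.35 and that of Scd3 0.61.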

How the results depend on the processing

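Over 25 alternatives and 35 members, 845 of 875 values kept their direction and their side of the threshold, 6 passed the threshold and 24 turned in sign. No reversal occurred in 28 members. DESeq2 called 5 members and 219 genes, and limma 0 members and 3 genes. Leaving out single libraries gave 0 to 1 members called, 0 to 10 genes and a median of the members from 0.35 to 0.51. Genes called numbered 5 with a pseudocount of 0.1, 6 with no filter, 5 with a filter at 5 CPM, 5 with CPM without factors, 5 with DESeq2 size factors, 9 without a trend and 5 with edgeR, which had 1687 at an unadjusted p under 0.05. With the hair covariate 14 genes were called. With the muscle covariate 0 were called by limma, with 1196 at an unadjusted p under 0.05, and without both libraries numbered 4 also 0, with 1453.

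Elovl1 was at -0.026 after quantile normalization. With the hair covariate Elovl1 was at -0.13, Fads1 at 0.15, Fads2 at 0.24 and Fads3 at 0.059. With the muscle covariate Me1 was at -0.058, Elovl1 at -0.12, Fads1 at 0.37, Fads2 at 0.22 and Fads3 at 0.13. Without both libraries numbered 4, Fads1 was at 0.039. Leaving out single libraries, Elovl1 ran from -0.053 to 0.13, Dgat1 from -0.041 to 0.24, Dgat2 from -0.14 to 0.044 and Fads1 from -0.25 to 0.064. The cause of these changes was not tested.

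Same-numbered libraries deviated together with r = 0.220, -0.238, 0.194, 0.127 and 0.0951, so the numbers were not taken as pairs. With the replicate block limma called 0 genes and 0 members, with 1576 genes at an unadjusted p under 0.05, and the median of the members stayed at 0.45. Among the members, depth limits Plin5 and Mc5r most.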
